A study of Homo sapiens with 6 samples.

Results

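The RAB family of small GTPases was followed in MDA-MB-231 cells and in a derivative of them called Pep2-E3. Members were the protein-coding genes whose GENCODE 29 name is RAB followed by a number and an optional letter or number. The rule found 59 members among the 30099 genes of the deposited tables. It used the names alone, not the measured values, but the members were chosen with earlier results of these data known. Of the 63 genes with such a name in the annotation, 61 are in the tables, and 2 of those were not analysed here.

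The series holds 6 RNA sequencing libraries of total RNA from a human breast cancer cell line. MDA-MB-231 is an established line of claudin-low, mesenchymal character. The 3 MDA-MB-231 libraries carry the genotype label control, and the 3 Pep2-E3 libraries carry the genotype label Pep-E3 on the same cell line background. The labels name no agent, dose, time or allele beyond these words, and do not say how Pep2-E3 cells were made or whether they are 1 clone. They do not say either that replicates came from separate cultures, so the p-values below speak of library-to-library variation, which may be technical. Values are FPKM, fragment counts scaled by exon length and library total, which are per length and so can be compared between genes.

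RAB proteins are switches of membrane traffic. A guanine nucleotide exchange factor (GEF) loads the GTPase with GTP on its membrane, a GTPase-activating protein (GAP) turns it off, and effectors bind the GTP form to tether, move or fuse vesicles. Most members carry lipid (geranylgeranyl) groups on cysteines at the very end of the protein, and GDI proteins extract them from the membrane between cycles. In breast cancer cells RAB traffic is known for recycling integrins and receptors, for delivering proteases and for releasing exosomes.

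The libraries held 17154511 to 18206694 fragments assigned to genes. Over pairs of MDA-MB-231 libraries the mean chi-square per gene was 2.68 to 3.9, between Pep2-E3 replicates 2 and 3 it was 4.16, and between Pep2-E3 replicate 1 and the other Pep2-E3 libraries it was 15.3 and 20, so replicate 1 stood apart from its group. The mesenchymal markers VIM, AXL and CD44 lay between 59.3 and 268 FPKM in all 6 libraries and SPARC reached at most 0.201 FPKM. Of the epithelial markers, CDH1 and ESR1 stayed at or under 0.0624 FPKM, EPCAM lay at 1.93 to 2.90 FPKM and KRT19 at 90.3 to 104 FPKM. The 6 immune, endothelial and neuroendocrine markers measured stayed at or under 0.425 FPKM. In bulk RNA, fewer cells that express a gene and less of its RNA per cell cannot be told apart.

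Of the 59 members, 44 had a mean of at least 0.5 FPKM over the 6 libraries and were tested; the other 15 were too low to test. RAB7A, which drives traffic from late endosomes to lysosomes, was the most abundant member in every library, at 90.4 to 93.1 FPKM in MDA-MB-231 and 112 to 124 FPKM in Pep2-E3. Next in mean level came RAB34, a Golgi and lysosome-positioning RAB that also acts in cilium formation, then RAB32, a RAB of mitochondria and lysosome-related organelles. RAB14, which works between the Golgi and early endosomes, was at 41.5 ± 0.753 FPKM in the MDA-MB-231 group and at 39.9 ± 7.93 FPKM in the Pep2-E3 group (SD, n = 3 each). RAB1B, a RAB of traffic from the endoplasmic reticulum to the Golgi, was at 38.2 ± 2.29 and 40.1 ± 1.83 FPKM. Of its exon bases, 42.55% overlap AP001107.2 on the other strand, so its reads are uncertain. RAB34 and RAB32 overlapped over the libraries of both groups, and RAB14 and RAB1B overlapped in Pep2-E3 but not in MDA-MB-231. In all, 19 members averaged over 10 FPKM and 9 averaged over 30 FPKM. The FPKM summed over the family was 661, 653 and 677 in the MDA-MB-231 libraries and 678, 711 and 713 in the Pep2-E3 libraries. RAB7A made up 13.8%, 13.9% and 13.8% of that sum in MDA-MB-231 replicates 1 to 3, and 18.3%, 16.2% and 15.7% in Pep2-E3 replicates 1 to 3.

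**Figure D1:**
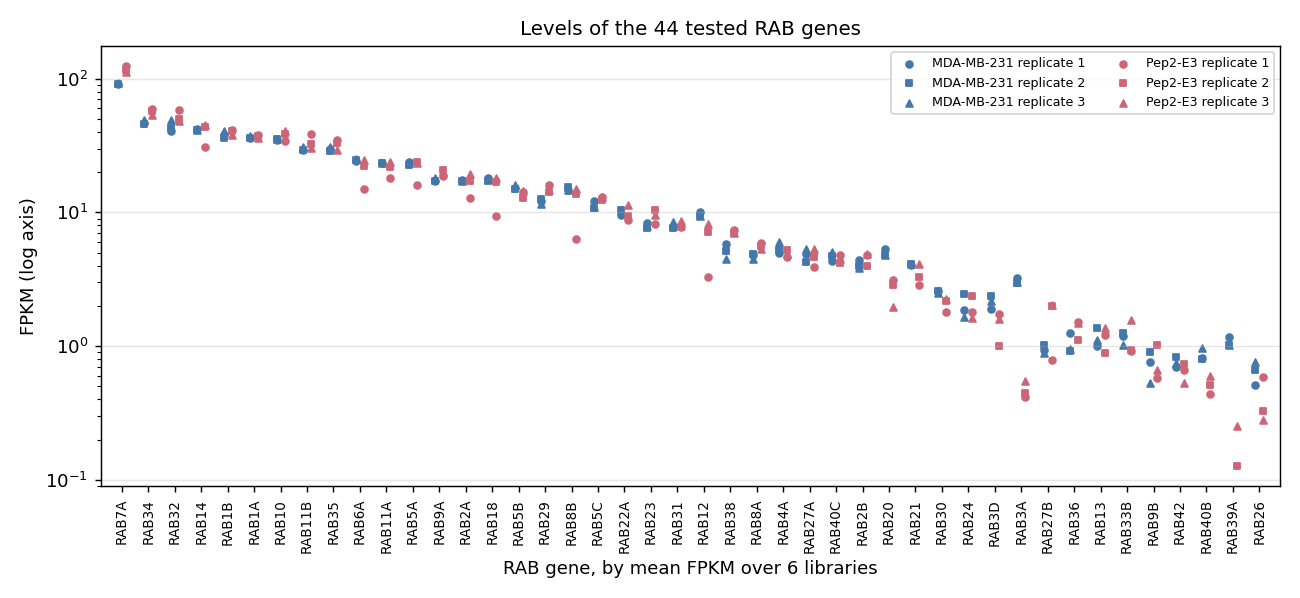
FPKM on a log axis for the 44 tested RAB genes, ordered by their mean over the 6 libraries; each point is 1 library, blue for MDA-MB-231 and red for Pep2-E3. RAB7A is highest in every library, and RAB3A and RAB39A show the widest gap between the colours; RAB39A in Pep2-E3 replicate 1 is at 0 and has no place on a log axis.

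The 15 untested members include RABs known from neurons, epithelia or blood cells. RAB33A, RAB39B, RAB44, RAB6C and RAB7B were listed at 0 in at least 3 libraries. RAB3B, RAB3C, RAB6B, RAB17, RAB25, RAB37 and RAB4B had group means of at most 0.193 FPKM. RAB40A, RAB43 and RAB41 averaged 0.435, 0.337 and 0.267 FPKM, the nearest under the threshold, while RAB26, RAB39A and RAB40B passed it at 0.520, 0.601 and 0.690 FPKM. In 8 of the 15 members, no library held 10 fragments. For RAB33A, 3 fragments, taken here as an approximate upper limit for a count of 0, would be 0.131 to 0.139 FPKM in the 4 libraries at 0. RAB43 shares 79.3% of its exon bases with the read-through gene ISY1-RAB43 on the same strand, and 66.1% of the 50-base words of RAB6C also occur in another gene, so their values are uncertain.

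Between the groups, 8 of the 44 tested members passed the test (limma on log2(FPKM + 1) over 14235 genes, with an adjusted p of Benjamini and Hochberg under 0.05). RAB7A, RAB34, RAB29, RAB38 and RAB8A rose in Pep2-E3, by 1.196-fold to 1.39-fold. RAB3A, RAB39A and RAB20 fell, by 1.89-fold to 8.45-fold. The 8 members are 18.2% of those tested, against 30.8% of all genes tested. The 5 that rose are 11.4%, against 14.6% of all genes, and the 3 that fell are 6.82%, against 16.2%. The groups did not overlap in FPKM in 15 of 44 members (34.1%), against 48.8% of all genes. The median log2 fold change was -0.03 over the members and -0.02 over all genes, and the median size of the change was 0.18 over the members and 0.19 over all genes. On log2(FPKM + 1), which compresses low genes, RAB3A was the 1 member to change by more than 1. The number of members that passed was 5 without MDA-MB-231 replicate 2, against 17.4% of all genes, and 13 without Pep2-E3 replicate 1, against 34.2%.

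RAB3A, which holds secretory vesicles ready for regulated release and is best known from synapses, showed the largest fitted change of the family on log2(FPKM + 1), while the change of RAB39A was larger as a ratio of means, with a pseudocount of 0.1 (-2.55 against -2.48) and with limma-voom (-3.68 against -2.67). It stood at 3.21, 2.96 and 3.01 FPKM in MDA-MB-231 replicates 1 to 3 and at 0.417, 0.445 and 0.545 FPKM in Pep2-E3 replicates 1 to 3. All 3 Pep2-E3 libraries were far below all 3 MDA-MB-231 libraries, with 13 to 17 fragments each against 96 to 106. The mean fell from 3.06 ± 0.132 to 0.469 ± 0.0674 FPKM (SD, n = 3 each), 6.53-fold lower. The log2 fold change was -1.47 ± 0.08 (SE), with a limma adjusted p of 0.000173. RAB3A lies on chromosome 19 from 18196784 to 18204074 on the minus strand (GRCh38), and 9.08% of its exon bases overlap MPV17L2 on the other strand. The library kit does not mark strand, so reads from that stretch cannot be told apart.

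RAB39A, a RAB of phagosomes and of late endosomal and autophagic traffic, was placed here with the ER and Golgi members. It stood at 1.17, 1.02 and 1.03 FPKM in MDA-MB-231 and at 0, 0.126 and 0.255 FPKM in Pep2-E3, replicates 1 to 3 in each. The groups were clearly separate, though the Pep2-E3 values rest on 0, 4 and 8 fragments, against 39, 34 and 33. At this depth the approximate upper limit of 3 fragments for the 0 in Pep2-E3 replicate 1 would be 0.0955 FPKM. The ratio of the means was 8.45-fold lower, and the fitted log2 fold change was -0.89 ± 0.11 (SE; limma adjusted p = 0.00252), a scale on which the added 1 compresses low genes. The gene spans 107928503 to 107963482 of chromosome 11 on the plus strand. RAB3A and RAB39A passed the filter on low values through their level in MDA-MB-231, since both Pep2-E3 means were under 0.5 FPKM.

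RAB20, which acts in phagosome maturation and is known as a hypoxia-induced gene in other cells, was the third member to fall. Its FPKM was 5.37, 4.78 and 4.81 in MDA-MB-231 and 3.11, 2.86 and 1.96 in Pep2-E3. The highest Pep2-E3 library was well under the lowest MDA-MB-231 library, and Pep2-E3 replicate 3 was the lowest of all. The mean went from 4.98 ± 0.334 to 2.64 ± 0.605 FPKM (SD, n = 3 each), a 1.89-fold decrease, with a log2 fold change of -0.73 ± 0.13 (SE) and a limma adjusted p of 0.00740. RAB20 lies on chromosome 13 from 110523066 to 110561733, minus strand, and shares no exon base with another gene.

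Among the members that rose, RAB7A had the smallest adjusted p. Its FPKM was 91.5, 90.4 and 93.1 in MDA-MB-231 and 124, 115 and 112 in Pep2-E3. The Pep2-E3 libraries were all higher, replicate 1 most, and the MDA-MB-231 libraries lay close together. The mean rose from 91.7 ± 1.35 to 117 ± 6.33 FPKM (SD, n = 3 each), 1.28-fold, with a log2 fold change of 0.35 ± 0.05 (SE; limma adjusted p = 0.00367). RAB7A spans 128726122 to 128814796 of chromosome 3 on the plus strand. Its paralog RAB7B, which acts between late endosomes and the Golgi, was listed at 0 in 5 of 6 libraries.

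RAB38 and RAB29 work at lysosome-related organelles and lysosomes, RAB38 in building melanosomes together with RAB32, and RAB29 in recruiting the kinase LRRK2. RAB38 was at 5.83, 5.14 and 4.48 FPKM in MDA-MB-231 and at 7.36, 6.99 and 7.04 FPKM in Pep2-E3. The groups did not overlap, with the wider spread in MDA-MB-231. The mean rose 1.39-fold, from 5.15 ± 0.675 to 7.13 ± 0.200 FPKM (SD, n = 3 each; log2 fold change 0.41 ± 0.09 SE, limma adjusted p = 0.0139). RAB29 was at 12.2, 12.5 and 11.6 FPKM in MDA-MB-231 and at 16.0, 14.3 and 14.8 FPKM in Pep2-E3. Every Pep2-E3 library was above every MDA-MB-231 library, with replicate 1 highest. Its mean rose 1.24-fold, from 12.1 ± 0.457 to 15.05 ± 0.903 FPKM (log2 fold change 0.29 ± 0.06 SE, limma adjusted p = 0.0130). RAB38 lies on chromosome 11 from 88113242 to 88175467 and RAB29 on chromosome 1 from 205767986 to 205775460, both on the minus strand.

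RAB34 was at 46.2, 45.4 and 48.8 FPKM in MDA-MB-231 and at 58.9, 56.9 and 53.8 FPKM in Pep2-E3. The groups were apart, and the mean rose 1.21-fold, from 46.8 ± 1.77 to 56.5 ± 2.58 FPKM (SD, n = 3 each; log2 fold change 0.27 ± 0.05 SE, limma adjusted p = 0.0113). It lies on chromosome 17 from 28714281 to 28718429, minus strand. RAB8A, which carries Golgi-derived vesicles to the plasma membrane and the primary cilium, was at 4.78, 4.85 and 4.47 FPKM in MDA-MB-231 and at 5.95, 5.59 and 5.32 FPKM in Pep2-E3. The gap between the groups was narrow for RAB8A. Its mean rose 1.196-fold, from 4.70 ± 0.201 to 5.62 ± 0.314 FPKM, with a log2 fold change of 0.22 ± 0.06 (SE) and a limma adjusted p of 0.0403. It no longer passed when any of 5 libraries was left out, with adjusted p = 0.0591 without Pep2-E3 replicate 1, 0.0965 without Pep2-E3 replicate 2, and 0.101, 0.0908 and 0.129 without MDA-MB-231 replicates 1, 2 and 3. RAB8A spans 16111629 to 16134234 of chromosome 19, plus strand, and 37.8% of its exon bases overlap AC008894.2 on the other strand, so its reads are uncertain. RAB34 and RAB38 lost their calls without MDA-MB-231 replicate 2 (adjusted p = 0.0506 and 0.0519), and RAB29 without MDA-MB-231 replicate 3 (0.0522).

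**Figure D2:**
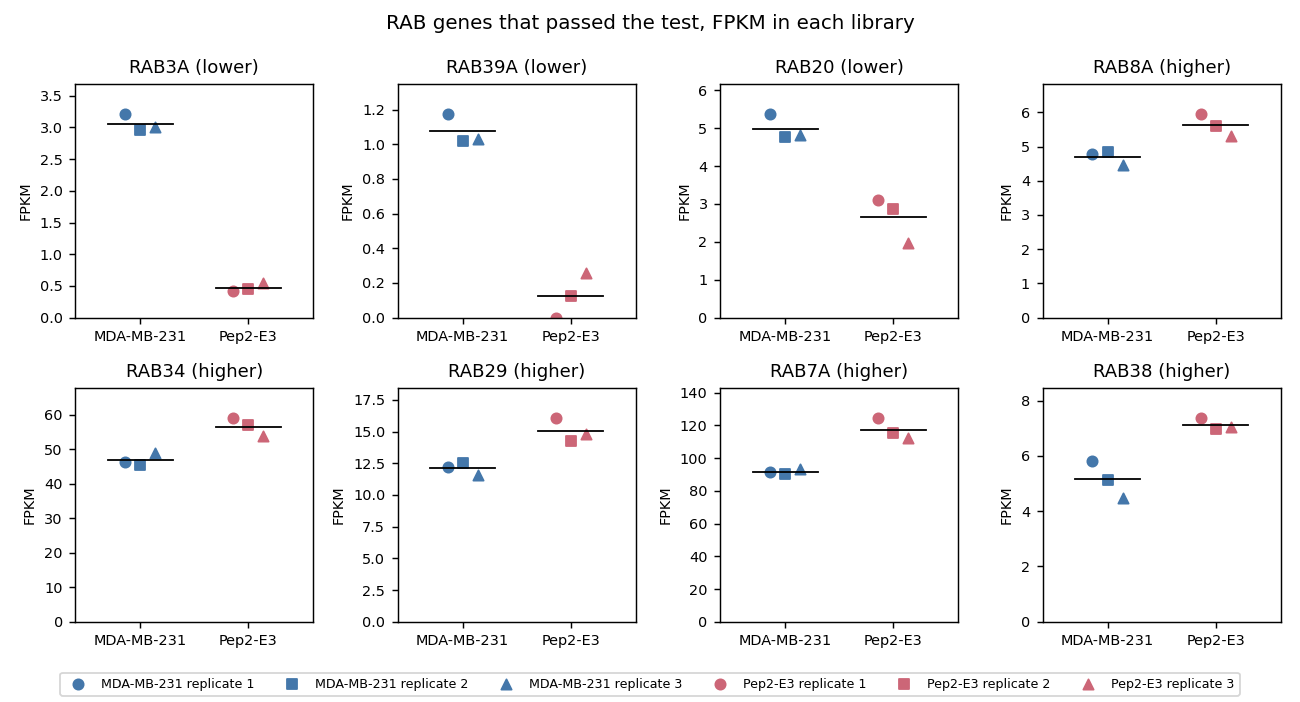
FPKM in each of the 6 libraries for the 8 RAB genes that passed the test, on axes that start at 0; each point is 1 library and each line a group mean. In every panel the Pep2-E3 libraries lie wholly above or wholly below the MDA-MB-231 libraries, with the widest relative gaps for RAB3A (6.53-fold) and RAB39A (8.45-fold).

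The ends of the coding sequences show what the 8 members share and where they differ. The last 30 coding bases before the stop codon are given for each, 5′ to 3′ from GENCODE 29 transcripts, with every cysteine codon of the stretch in capitals. RAB3B and RAB3D are added as paralogs of RAB3A; the paralog RAB3C, at no more than 0.0181 FPKM in any library, has the same arrangement of cysteine codons and is not shown.
RAB3A: caggtgccaccgcaccaggacTGCgccTGC
RAB3B: ccaccgctgctgcagcagaacTGCtcaTGC
RAB3D: ccagccccccagcccagcagcTGCagcTGC
RAB39A: gcagtaaagcccaggaaagaaTGCttcTGC
RAB7A: gccaaggcctcggcagaaagcTGCagtTGC
RAB20: cccaagaggaccagatctgggTGTTGTgcc
RAB34: gccagcaagaagaagcccacaTGTTGCcca
RAB29: caaaccaagtcctccagctggtccTGCTGC
RAB38: gttgccagcTGCtctggcTGTgccaaatcc
RAB8A: aggagcagctttttccgaTGTgttcttctg

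Across the family, 15 members end in a pair of adjacent cysteine codons, 18 end in cysteine codons that flank 1 other codon, 25 have another arrangement with a cysteine codon among the last 5, and RAB6C has none there. The members that fell and rose do not share 1 arrangement. RAB3A, RAB39A and RAB7A carry the flanked form, of which 11 members were tested, 1 rose and 2 fell. RAB29 ends in the adjacent pair, of which 14 members were tested, 1 rose and 0 fell. RAB20, RAB34, RAB38 and RAB8A belong to the mixed class, of which 19 were tested, 3 rose and 1 fell. Of all genes tested, 14.6% rose and 16.2% fell, and no class was tested against these shares.

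By site of action, late endosomes, lysosomes and lysosome-related organelles held 8 members, of which 7 were tested. RAB7A, RAB29 and RAB38 rose and none of the 7 fell, beside 14.6% higher and 16.2% lower among all genes tested. RAB39A, which fell and is also known from late endosomes, was counted with the ER and Golgi members. RAB12, which acts in traffic to lysosomes, was counted with the secretory vesicle and plasma membrane members. Its log2 fold change was -0.63, which did not pass with all 6 libraries and passed as lower without Pep2-E3 replicate 1. That none fell, and the median of the group, rest on these placements. The compartments were chosen with earlier results of these data known. The counts and the median are therefore a description, not a test. The median log2 fold change of the 7 was 0.25, beside -0.02 over all genes. RAB32 of this group was at 40.7, 42.5 and 48.6 FPKM in MDA-MB-231 and at 58.7, 50.05 and 48.5 FPKM in Pep2-E3. Its groups overlapped, and it did not pass (log2 fold change 0.25 ± 0.09 SE, limma adjusted p = 0.0889). RAB9A, which returns receptors from late endosomes to the Golgi, was at 17.3, 17.1 and 17.98 FPKM in MDA-MB-231 and 18.7, 20.9 and 20.1 FPKM in Pep2-E3. Its groups did not overlap, but it missed the threshold (0.18 ± 0.06 SE, limma adjusted p = 0.0536). The low members RAB24 and RAB9B had log2 fold changes of -0.03 and 0.01. RAB24 shares 44.8% of its exon bases with MXD3 on the same strand, so its reads are uncertain.

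In the ER and Golgi group, 11 of 17 members were tested, RAB34 rose, RAB39A fell, and the median log2 fold change was -0.02. The housekeeping pair RAB1A and RAB1B, which moves cargo from the ER to the Golgi, had log2 fold changes of 0.03 ± 0.04 and 0.07 ± 0.06 (SE). Genes on the other strand overlap 22.9% of the exon bases of RAB1A (CEP68) and 42.55% of those of RAB1B (AP001107.2). RAB30, a Golgi RAB, was at 2.57, 2.59 and 2.50 FPKM in MDA-MB-231 and 1.79, 2.17 and 2.24 FPKM in Pep2-E3. All 3 Pep2-E3 values were lower, yet the difference did not pass (-0.22 ± 0.08 SE, limma adjusted p = 0.0823). RAB30 passed in limma-voom alone among 16 alternatives (log2 fold change -0.31, adjusted p = 0.0327).

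In the early endosome and phagosome group, 9 of 10 members were tested, RAB20 alone fell, none rose, and the median was -0.11. The 3 RAB5 paralogs, which organise early endosome fusion, had log2 fold changes of -0.15 for RAB5A, -0.14 for RAB5B and 0.17 for RAB5C, and none passed. RAB4A of fast recycling had a value of -0.11. Genes on the same strand share 28.8% of the exon bases of RAB5C (AC099811.2) and 19.6% of those of RAB4A (SPHAR), so their reads are uncertain. Of the recycling endosome group, 3 of 5 members were tested and none passed. RAB11A, RAB11B and RAB35 had log2 fold changes of -0.15, 0.18 and 0.11.

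In the secretory vesicle and plasma membrane group, 10 of 13 members were tested. RAB3A fell, RAB8A rose, and the median was -0.15. RAB23, a cilium RAB that restrains Hedgehog signalling, and the SOCS box members RAB40B and RAB40C, which serve in ubiquitin ligases, did not pass. RAB40B was at 0.809, 0.798 and 0.976 FPKM in MDA-MB-231 and 0.442, 0.514 and 0.602 FPKM in Pep2-E3. Its groups did not overlap (log2 fold change -0.29 ± 0.09 SE, limma adjusted p = 0.0531). RAB40B passed with limma-voom (log2 fold change -0.73, adjusted p = 0.0122) and with the 1 CPM filter (limma adjusted p = 0.0109). In 14 of 16 alternatives it did not pass. RAB42, which has no agreed site, had a log2 fold change of -0.10.

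**Figure D3:**
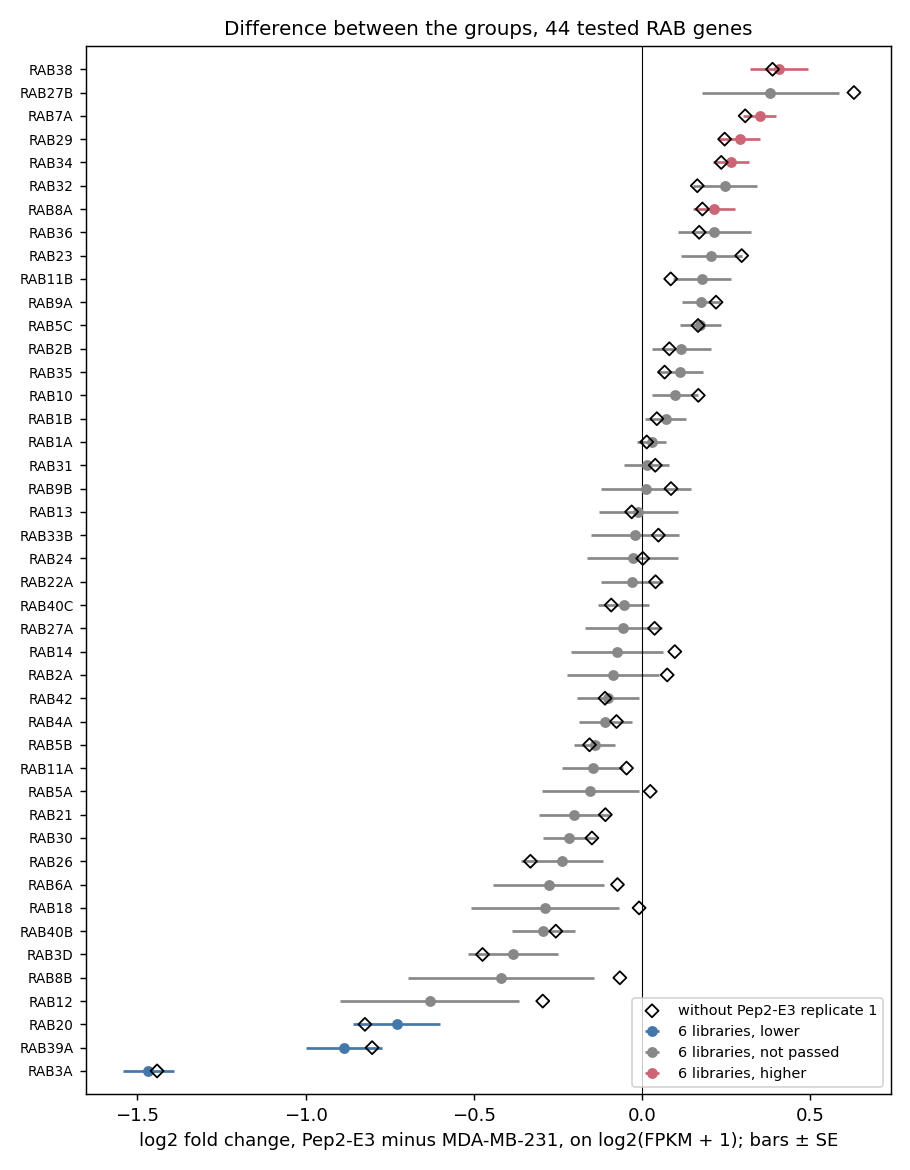
Log2 fold change, Pep2-E3 minus MDA-MB-231, on log2(FPKM + 1) for the 44 tested RAB genes; filled points with SE bars use all 6 libraries, coloured by call, and open diamonds leave out Pep2-E3 replicate 1. RAB3A at -1.47 is the lowest on this scale, and the diamonds of RAB8B, RAB12, RAB18, RAB6A and RAB27B lie farthest to the right of their filled points.

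Several further members moved with 1 library. RAB12, which sends the transferrin receptor from recycling endosomes to lysosomes, was at 10.1, 9.38 and 9.33 FPKM in MDA-MB-231 and at 3.29, 7.10 and 8.24 FPKM in Pep2-E3. Replicate 1 was far below the other Pep2-E3 libraries, though all 3 were below MDA-MB-231. The log2 fold change was -0.63 ± 0.27 (SE; limma adjusted p = 0.117) with all libraries and -0.29 ± 0.07 (adjusted p = 0.0238) without replicate 1. RAB8B, the paralog of RAB8A, was at 14.8, 15.5 and 14.8 FPKM in MDA-MB-231 and 6.33, 13.7 and 14.99 FPKM in Pep2-E3. Only replicate 1 was far from the other 5 libraries, and the log2 fold change went from -0.42 ± 0.28 to -0.07 ± 0.05 (SE) without it, with limma adjusted p = 0.289 and 0.389. RAB27B, which with RAB27A docks secretory lysosomes and exosome-bearing endosomes, was at 0.934, 1.01 and 0.882 FPKM in MDA-MB-231 and 0.792, 1.99 and 2.02 FPKM in Pep2-E3. Replicates 2 and 3 were above all MDA-MB-231 libraries and replicate 1 below them. Its log2 fold change was 0.38 ± 0.20 (SE; limma adjusted p = 0.199) with all libraries and 0.63 ± 0.09 (adjusted p = 0.00313) without replicate 1.

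Over the 44 members, the deviation of Pep2-E3 replicate 1 from the mean of the other Pep2-E3 libraries went with the GC content of the gene (Pearson's r = 0.650 and Spearman's rho = 0.769 across 44 genes). These genes share the same 3 libraries, so the r is a description. In the MDA-MB-231 libraries the same r was -0.14, -0.03 and 0.15. Over all genes tested, the r of Pep2-E3 replicate 1 was 0.489, so the trend was not confined to the family. Over the members, the deviation also went with log2 exon length, with r = -0.38, 0.04 and 0.52 in Pep2-E3 replicates 1 to 3. In MDA-MB-231 replicates 1 to 3 that r was -0.11, 0.04 and 0.06. The parts of GC content and exon length were not told apart. Among the 22 members of lower GC content (35.9% to 43.9%), the median deviation of replicate 1 was -0.26 and replicate 1 was the lowest of all 6 libraries in 16. Among the 22 of higher GC content (45.5% to 64.4%), the median was 0.10 and it was the lowest in 3. The members that deviated by more than 0.5 were RAB8B (-1.06), RAB12 (-1.01), RAB18 (-0.84), RAB27B (-0.75), RAB6A (-0.62), RAB5A (-0.53) and RAB14 (-0.52). The part of GC content and exon length together in the calls was examined by a correction and by leaving out the library.

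**Figure D4:**
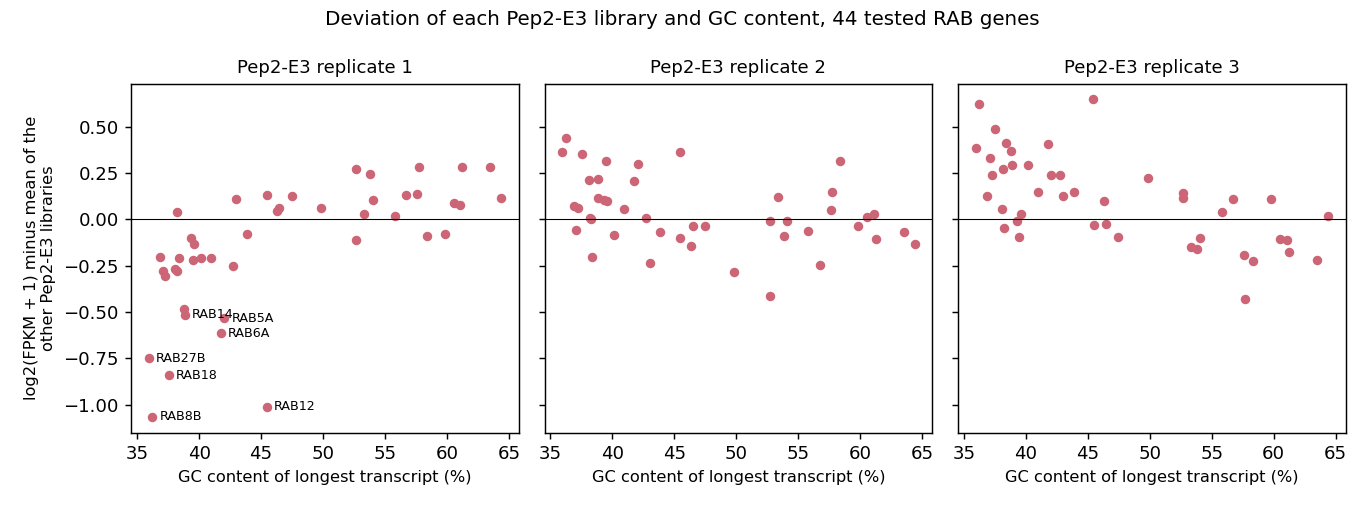
Deviation of each Pep2-E3 library from the mean of the other Pep2-E3 libraries on log2(FPKM + 1), against the GC content in percent of the longest transcript; each point is 1 of the 44 tested RAB genes. In replicate 1 most members of low GC content lie below 0, down to -1.06 for RAB8B, and RAB1A (0.04) and RAB2B (0.11) are the 2 of the lower 22 that lie above it; since deviations are taken against each other, the opposite slope in the other 2 panels is not independent of it.

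Without Pep2-E3 replicate 1, the 13 of 44 members that passed were 29.5%, against 34.2% of all genes. RAB3A, RAB39A, RAB20, RAB7A, RAB34, RAB29 and RAB38 were among them and RAB8A was not. The 6 added were RAB10, RAB23, RAB27B and RAB9A, which were higher, and RAB12 and RAB3D, which were lower. RAB10, which brings glucose transporter vesicles to the cell surface, had a log2 fold change of 0.17 ± 0.04 (SE; limma adjusted p = 0.0191). RAB23 had 0.30 ± 0.06 (adjusted p = 0.0119), with 57.7% of its exon bases overlapping BAG2 on the other strand. RAB9A had 0.22 ± 0.04 (adjusted p = 0.0119). After spline curves in GC content and exon length were taken out of every library, with all 6 kept, 13 members passed, against 37.9% of all genes. These were the 8 above with RAB10, RAB23, RAB27B, RAB3D and RAB9A. With both changes 13 passed, against 36% of all genes.

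The makeup of the RAB3 paralogs differed between the groups. RAB3D, which lines secretory granules of exocrine cells, was at 1.91, 2.39 and 2.18 FPKM in MDA-MB-231 and 1.74, 0.995 and 1.58 FPKM in Pep2-E3. It was lower in all 3 Pep2-E3 libraries but did not pass (log2 fold change -0.38 ± 0.13 SE, limma adjusted p = 0.0712). Of its exon sequence, 23.8% is also covered by AC011472.3 on the opposite strand. RAB3B was at most 0.0643 FPKM in any library, and RAB3C, at most 0.0181 FPKM, was not part of the sum below. RAB3A made up 62.0%, 54.7% and 57.7% of the FPKM summed over RAB3A, RAB3B and RAB3D in MDA-MB-231, and 19.1%, 30.9% and 25.3% in Pep2-E3. The share went from 58.1 ± 3.62% to 25.1 ± 5.89% (SD, n = 3 each) while that of RAB3D went from 40.9 ± 3.75% to 74.2 ± 5.51%. No library of one group reached the range of the other, and an exact permutation test of 3 against 3 cannot go below p = 0.10. The coding sequences of RAB3A and RAB3D are 77.1% identical, and those of RAB3A and RAB3B 76.7%.

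Shares were also taken within the other paralog sets. RAB8A made up 24.4%, 23.8% and 23.2% of the RAB8A and RAB8B sum in MDA-MB-231, and 48.4%, 28.99% and 26.2% in Pep2-E3. Replicate 1 of Pep2-E3 was the library in which RAB8B was low, and the other 2 were only slightly above MDA-MB-231. RAB27B made up 16.1%, 19.3% and 14.2% of the RAB27 sum in MDA-MB-231 and 16.8%, 30.2% and 27.5% in Pep2-E3, so the groups overlapped through replicate 1. RAB38 held 10.6 ± 2.06% of the RAB32 and RAB38 sum in MDA-MB-231 and 12.0 ± 0.794% in Pep2-E3 (SD, n = 3 each), shares that overlapped. RAB1A held 48.7 ± 1.09% and 47.9 ± 0.655% of the RAB1 sum, with the overlaps on the other strand named above.

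**Figure D5:**
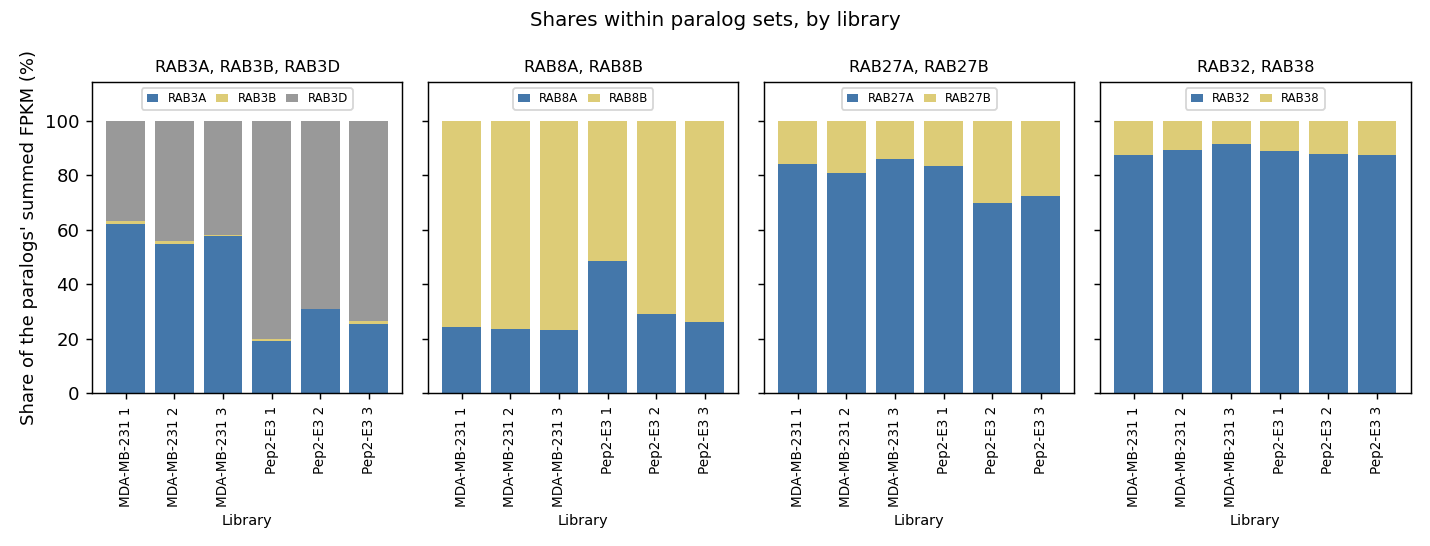
Share of the summed FPKM held by each paralog, in percent, stacked to 100 in each of the 6 libraries for 4 paralog sets. RAB3A falls from 54.7% to 62.0% in MDA-MB-231 to 19.1% to 30.9% in Pep2-E3 with RAB3D taking most of the rest, and the high RAB8A share of 48.4% is seen in Pep2-E3 replicate 1.

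The chromosomal neighbours of the 8 members had median log2 fold changes of -0.13 to 0.06, beside -0.02 over all genes. Among the 40 nearest tested genes of RAB3A, 3 rose and 8 fell with a median log2 fold change of -0.01. For RAB39A and RAB20 the neighbours' medians were -0.13 and -0.11, with 8 of 40 lower in each and 3 and 4 higher. For RAB7A, RAB29, RAB34, RAB38 and RAB8A the medians ran from -0.06 to 0.06. Their neighbours were lower in 7, 7, 4, 3 and 4 of 40 and higher in 3, 3, 4, 5 and 6. Of all genes tested, 14.6% were higher and 16.2% lower, and no neighbourhood was tested against these shares. Promoters from RefSeq (GRCh38.p14, 250 bases before to 50 after the start) were matched for 47 members. The E-box CACGTG, searched on both strands, was found in 6 of them (12.8%), against 7.43% of all 27305 promoters. They were those of RAB21, RAB24, RAB29, RAB31, RAB4A and RAB5A, and RAB29 was the 1 that passed.

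The proteins that carry and load RABs were followed next. Of 16 genes for escort, prenylation, GDI and release factors, all were tested, 2 rose and 2 fell (25%, against 30.8% of all genes; median log2 fold change 0.03). RABIF, a chaperone of nucleotide-free RABs, was at 8.04, 8.61 and 8.42 FPKM in MDA-MB-231 and 14.2, 14.9 and 12.7 FPKM in Pep2-E3. All Pep2-E3 libraries were well above (log2 fold change 0.67 ± 0.07 SE, limma adjusted p = 0.00134). ICMT, which methylates prenylated cysteines, rose by 0.39 ± 0.05 (adjusted p = 0.00265). RABAC1, a receptor of prenylated RABs on Golgi membranes, had a log2 fold change of -0.45 ± 0.09 (adjusted p = 0.0132); it passed the filter on low values through MDA-MB-231, since its Pep2-E3 mean was 0.494 FPKM. YIPF2, a Golgi membrane protein, had a log2 fold change of -0.25 ± 0.07 (adjusted p = 0.0389). YIPF2 kept its call on leaving out Pep2-E3 replicate 1 and lost it without any other single library (adjusted p of 0.0689 to 0.123). Of the 16 genes, 8 passed without Pep2-E3 replicate 1, against 34.2% of all genes.

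Of 46 GEF genes, 40 were tested, 3 rose and 8 fell (27.5%, against 30.8% of all genes). Their median log2 fold change was -0.08. DENND3, the GEF of RAB12, was at 11.01, 11.004 and 10.7 FPKM in MDA-MB-231 and 4.73, 3.98 and 4.77 FPKM in Pep2-E3. The groups were far apart and the log2 fold change was -1.12 ± 0.07 (SE; limma adjusted p = 0.000287). RAB3IL1, a GEF that binds RAB3A and activates RAB8A, was at 3.22, 2.94 and 3.05 FPKM in MDA-MB-231 and 7.54, 6.43 and 6.59 FPKM in Pep2-E3. It was higher in all 3 Pep2-E3 libraries, with a log2 fold change of 0.94 ± 0.07 (SE; limma adjusted p = 0.000542). MON1A and MON1B, alternative subunits of the GEF of RAB7A, rose by 0.47 ± 0.10 (adjusted p = 0.0141) and 0.24 ± 0.05 (adjusted p = 0.0126). SBF2, a GEF of RAB21, had a value of -0.55, TRAPPC9 of the TRAPP tethering complex -0.48 and HPS4, a subunit of the GEF of RAB32 and RAB38, -0.32. MON1A lost its call without MDA-MB-231 replicates 1 or 3 (adjusted p = 0.0549 and 0.0509), MON1B without replicate 1 (0.0590) and HPS4 without replicate 2 (0.0555) of the same group. The number of GEFs that passed was 5, 6 and 6 without MDA-MB-231 replicates 1, 2 and 3, and 7 without Pep2-E3 replicate 2. Of all genes, 19%, 17.4%, 20.3% and 21% passed in these 4 settings.

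Of 40 GAP genes, 37 were tested, 7 rose and 7 fell (37.8%, against 30.8% of all genes). Their median log2 fold change was -0.05. TBC1D4, which acts on RAB10 and RAB14 in glucose transporter traffic, was at 22.0, 23.0 and 21.6 FPKM in MDA-MB-231 and 9.84, 10.8 and 12.1 FPKM in Pep2-E3. The groups did not come near each other, and the log2 fold change was -0.97 ± 0.08 (SE; limma adjusted p = 0.000543). TBC1D14, a regulator of autophagosome formation, TBC1D31 and TBC1D19 fell with log2 fold changes of -0.55, -0.55 and -0.58. TBC1D8, GRTP1, TBC1D13, a GAP of RAB35, and TBC1D2B rose by 0.37, 0.46, 0.40 and 0.31. TBC1D13 lost its call without MDA-MB-231 replicates 1 or 2 (adjusted p = 0.0567 and 0.0582) and TBC1D2B without replicates 1 or 3 (0.0558 and 0.0557). The number of GAPs that passed was 6 and 7 without MDA-MB-231 replicates 1 and 2 (19% and 17.4% of all genes), and 9 without Pep2-E3 replicate 2 (21% of all genes).

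Of 64 effector genes in the tables, 57 were tested, 4 rose and 10 fell (24.6%, against 30.8% of all genes). Their median log2 fold change was -0.06. Those that rose were PLEKHM1 (0.30), an effector of RAB7A in fusion with lysosomes, RABEP2 (0.38), a rabaptin of early endosomes, OPTN (0.23), an autophagy receptor that binds RAB8A, and RUFY1 (0.25), an effector of early endosomal RABs. The 4 of smallest p that fell were APPL2 (-0.47), which binds RAB5A on early endosomes, WDR91 (-0.47), an effector of RAB7A in endosome maturation, and the golgins GOLGA2 (-0.37) and GOLGA5 (-0.63), which bind RAB1A. OPTN lost its call without any of the MDA-MB-231 libraries (adjusted p of 0.0542 to 0.0671), and RUFY1 without MDA-MB-231 replicates 1 or 2 or Pep2-E3 replicates 2 or 3 (0.0546 to 0.0947). WDR91 was at 3.17, 3.05 and 3.01 FPKM in MDA-MB-231 and 1.85, 1.99 and 1.95 FPKM in Pep2-E3, without overlap.

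Of 9 RAB-like and atypical GTPases outside the naming rule, 8 were tested, 2 rose and none fell (25%, against 30.8% of all genes). Their median log2 fold change was 0.09. Only 1 passed when MDA-MB-231 replicate 1, MDA-MB-231 replicate 2 or Pep2-E3 replicate 2 was left out, against 19%, 17.4% and 21% of all genes. RASEF, an atypical RAB with calcium-binding EF hands, was at 0.265, 0.297 and 0.232 FPKM in MDA-MB-231 and 1.17, 1.39 and 1.49 FPKM in Pep2-E3. All 3 Pep2-E3 libraries were several times higher than MDA-MB-231, and RASEF passed the filter on low values through them alone, with an MDA-MB-231 mean of 0.265 FPKM. The log2 fold change was 0.89 ± 0.09 (SE; limma adjusted p = 0.00134). IFT22, a RAB-like subunit of the intraflagellar transport machinery of cilia, rose by 0.33 ± 0.08 (adjusted p = 0.0214) and lost its call without MDA-MB-231 replicates 1 or 2 or Pep2-E3 replicate 2 (adjusted p of 0.0662 to 0.0743).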

How the data were processed

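Deposited tables gave 1 FPKM value per Ensembl gene in each of 6 libraries, 3 per group. The submitters' processing notes name HISAT2 2, Bowtie2 2.2.3 and HTSeq 0.6.0, with no role given. They name the mouse build mm8, although all 30099 identifiers are human and matched GENCODE 29. The build used for alignment therefore cannot be taken from the notes. The FPKM were scaled with exon lengths equal to those of GENCODE 29, which gave whole fragments for 100% of values. Coordinates here are GRCh38 from GENCODE 29. Per the labels' protocols, total RNA came from frozen cells by Trizol extraction, and the NEBNext Ultra library kit was used; that kit keeps no strand information.

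FPKM values times GENCODE exon length and library total gave whole fragments for 100% of values (within 0.05), so the authors' FPKM derive from whole fragments per gene, 17154511 to 18206694 in all per library. Intervals and the floor of 3 fragments cover counting error only, and the floor is an approximate limit for a count of 0, not a hard bound. Genes with a mean of at least 0.5 FPKM over 6 libraries (14235) were tested with limma 3.58.1 (R 4.3.3), trend and empirical Bayes, on log2(FPKM + 1), with group as the only term and Benjamini-Hochberg adjustment over all genes at 0.05; the script was tested on simulated data. A fold change on this scale understates the change of low genes, so ratios of mean FPKM are given beside it. Alternatives were pseudocounts of 0.1 and 5, no filter on low values, at least 1 CPM in 3 libraries, RLE and upper-quartile scaling, limma-voom on recovered fragments, a replicate block, a spline correction for GC content and exon length, and leaving out each library.

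The members, compartments and lists were chosen with earlier results of these data known. Values are named for every member that passed, for those listed at 0, for the 5 most abundant, for paralogs and, per list, for up to 4 genes of smallest p in each direction. Other members named because their groups did not overlap or because 1 library moved them were chosen after their values were seen. Protein sequences were not used here; identities and endings come from coding sequences of GENCODE 29 transcripts. Of the 65 effectors listed, MYRIP was not analysed here. Same-numbered libraries were not treated as pairs.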

Additional observations from a re-analysis of the deposited data

How the results depend on the processing

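RAB3A, RAB39A, RAB20 and RAB7A passed in the same direction under all 16 alternatives, with highest adjusted p of 0.00579, 0.0167, 0.0322 and 0.0231. RAB29 and RAB38 passed in 15 of 16, RAB34 in 14 and RAB8A in 8, and no called member changed direction. The number of members that passed was 8 (18.2%, against 30.8% of all genes). It was 13 with the GC content and exon length correction (9 higher), which is 29.5%, against 37.9% of all genes. With the correction and Pep2-E3 replicate 1 left out together it was 13 (8 higher, 5 lower), against 36% of all genes. That alternative was chosen after seeing the data. Leaving out 1 library gave 5 to 13 (2 to 8 higher, 3 to 5 lower). The 5, without MDA-MB-231 replicate 2, are 11.4%, against 17.4% of all genes. The 13, without Pep2-E3 replicate 1, are 29.5%, against 34.2% of all genes. With no filter on low values, 7 of 59 members passed (11.9%), against 11.3% of all genes. The number lower was 5 with the 1 CPM filter, with RAB3D and RAB40B added, and 6 with limma-voom, with RAB30 added as well. Of all genes, 35.8% and 33.5% passed in these settings, in either direction. Over all genes, leaving out 1 library gave 2471 to 4866 calls.

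The escort and prenylation list gave 7 calls with the correction (37.9% of all genes passed), 9 with the correction and Pep2-E3 replicate 1 left out (36% of all genes), and 3 to 8 as single libraries were left out. The GEFs gave 5 to 12, the GAPs 6 to 14, the effectors 10 to 17 and the RAB-like genes 1 to 2 on leaving out single libraries. In those settings 17.4% to 34.2% of all genes passed. The RAB-like genes gave 1 with no filter, a setting in which 11.3% of all genes passed.

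With the replicate number as a block, 6 members passed (3 higher, 3 lower; RAB34 and RAB8A lost their calls), the GEFs gave 5, the RAB-like genes 1, and 20.8% of all genes passed. Same-numbered libraries did not deviate together (correlations of -0.04, 0.04 and -0.06). The labels do not say what the number means, and these correlations cannot tell whether such libraries shared a culture or batch. The causes of these shifts were not tested. Members of low level rest on few fragments, as few as 0 to 8 for RAB39A in Pep2-E3, and their folds are imprecise.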
